A study of Mus musculus with 6 samples.

Results

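The genes described here encode the enzymes that remove peroxides and superoxide, the thioredoxin and glutathione-linked proteins that keep thiols reduced, the NRF2 switch that governs many of them, and the pentose phosphate enzymes. They are the rows of a deposited table of exon read counts that carry 1 of 32 gene symbols. All 32 were found among 23453 gene rows. The symbols were chosen with earlier results of these data known, so the shares called among them are not those of an unselected set. RNA had been sequenced from cultured splenocytes of WT OT1 mice of the C57BL/6 strain, whose T cells bear a transgenic receptor for a peptide of ovalbumin (OVA). The cultures were given OVA peptide over 48 h, after which they spent 8 h in either FCM (titled "Vehicle") or TCM, which the labels do not spell out. Each group had 3 libraries of 17166687 to 25789381 counts, so that 1 count was worth 0.0388 to 0.0583 CPM (counts scaled to a common library size) before any further scaling. The single row Rn45s, a ribosomal RNA precursor, held 11.2% to 18.9% of the counts of a library and is part of these totals.

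The 2 deposited tables disagree on which group is TCM. All 6 normalized columns, rescaled by 1 factor each, matched the count column with the same replicate number but the other group's title, and 0 matched their own title. FCM and TCM are used here as the count table titles them, and every direction given for the groups turns around under the other table's titles. Whether replicates came from different cultures or mice is not in the labels, and p-values reflect only how far these libraries scatter, and that scatter may be technical. The replicate 1 libraries of both groups lay apart from the others on the second principal component, which held 8.32% of the variance.

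The labels name cytotoxic T lymphocytes as the cell type. T cell markers were present in every library, with 9 markers summing to 1010 to 1210 CPM in FCM and 1620 to 1950 CPM in TCM, but without Thy1, the most abundant, the other 8 summed to 734 to 839 and 811 to 928 CPM, which overlap. Of the 9 markers Thy1 (336 ± 51.1 and 923 ± 104 CPM; SD, n = 3) and Cd3d (111 ± 16.8 and 189 ± 48.9 CPM) rose in TCM, Cd8a (111 ± 2.20 and 69.7 ± 3.12 CPM) fell, and 6 did not pass. Markers of other cells were present as well. The sum of 13 neutrophil markers ran from 8860 to 13500 CPM in FCM and from 1550 to 2640 CPM in TCM, that of 10 macrophage markers from 514 to 619 and from 108 to 115 CPM, that of 8 B cell markers from 1810 to 2170 and from 974 to 1160 CPM, and that of 8 erythroid rows from 40.8 to 65.6 and from 9.58 to 17.1 CPM. Lyz2, which neutrophils express too, made up most of the macrophage sum in FCM (414 ± 29.2 and 32.7 ± 2.09 CPM), and the other 9 macrophage markers summed to 121 to 172 CPM in FCM and 73 to 84.8 CPM in TCM. Of the 8 B cell markers 6 fell and 2 did not pass. Ms4a1 had a log2 change of -0.16 ± 0.18 (SE). Blk went the other way, at 0.22 ± 0.12 (SE), with every TCM library above every FCM library. None of the neutrophil, macrophage or B cell markers was at 0 in all libraries. These cultures are mixtures, and in such bulk samples fewer cells of a type and less RNA per cell cannot be told apart. The part of these markers in the changes of the 32 genes was not tested.

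As background, NRF2 (gene Nfe2l2) is a transcription factor that is held in the cytoplasm and marked for breakdown by KEAP1 until oxidants or electrophiles modify KEAP1. It then binds antioxidant response elements beside genes for thioredoxin reductase, peroxiredoxins, quinone reductase and glutathione enzymes. Peroxiredoxins reduce peroxides with electrons from thioredoxin, thioredoxin is recharged by thioredoxin reductase, and the electrons come from NADPH, which the oxidative branch of the pentose phosphate pathway makes. Activated T cells build nucleotides from the ribose that this pathway supplies and use its NADPH for reductive synthesis.

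Promoter windows of the members were searched for the core of that element, the letters NRF2 is known to bind, whatever their change. RefSeq promoter windows on GRCm38.p6, from 250 bases before to 50 bases after a start, were found for 30 of the 32 genes (all but Prdx6 and Abcc1). The core was searched as TGACNNNGC on both strands. It occurred for 8 of 30 members (26.7%) and for 3781 of 27025 genes in the table (14.0%). In Srxn1 and Pgd the match lay after the RefSeq start, and the windows around the other 6 are printed 5′ to 3′ on the gene's strand, with the match in capitals. In 5 of these 6 the core reads on the opposite strand, so the capitals follow GCNNNGTCA. The matches of Txnrd1, Mgst1 and G6pdx lie before a RefSeq start but within the gene's span in GENCODE, where a start is annotated farther upstream.
Prdx1, chr4:116685446-116685494, + strand: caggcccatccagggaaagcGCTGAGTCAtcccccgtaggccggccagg
Txnrd1, chr10:82859094-82859142, + strand: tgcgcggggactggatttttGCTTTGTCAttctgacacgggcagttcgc
Sod1, chr16:90220686-90220734, + strand: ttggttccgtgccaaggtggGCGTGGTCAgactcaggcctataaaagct
Mgst1, chr6:138140451-138140499, + strand: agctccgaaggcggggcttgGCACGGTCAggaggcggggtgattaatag
G6pdx, chrX:74428909-74428957, - strand: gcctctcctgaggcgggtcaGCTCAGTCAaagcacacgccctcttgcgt
Nfe2l2, chr2:75704875-75704913, - strand: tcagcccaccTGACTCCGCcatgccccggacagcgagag
The first 3 of these genes were higher in TCM and the other 3 lower, as the values that follow show. A match is a run of letters in this window and not a measured binding site. Genes without a match, Nqo1 among them, may hold the core outside the window, which was not searched.

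All 32 genes passed the filter on low counts and were tested among 12423 genes with edgeR's quasi-likelihood test, Benjamini-Hochberg adjusted over all of these. In TCM 14 of the 32 rose (43.8%), 6 fell (18.8%) and 12 did not pass at an adjusted p of 0.05, while 28.8% of all genes were called higher and 30.0% lower. Those that rose were Nqo1, Txn1, Txnrd1, Prdx1, Prdx2, Prdx3, Prdx4, Prdx6, Sod1, Sod2, Mgst3, Gsto1, Gstp1 and Glrx2, and those that fell were Nfe2l2, Osgin1, Txnip, Prdx5, Mgst1 and G6pdx. The median log2 fold change was 0.42 over the 32 genes and -0.02 over all genes tested. A change that both passed and reached 1.5-fold was seen in 17 members (53.1%), against 44.9% of all genes. No overlap between FCM and TCM libraries was seen in 24 members (75.0%), against 64.2% of all genes, so non-overlap was common throughout this comparison. The number of rises depended on scaling and on single libraries. With library totals in place of TMM, edgeR's trimmed-mean scaling, the median of all genes moved by -0.21 and the members split into 9 higher and 7 lower. That took the share of higher calls from 70.0% to 56.2% among the members and from 49.0% to 37.4% among all genes. Without TCM replicate 2, or without TCM replicate 3, 9 members rose and 6 fell.

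**Figure D1:**
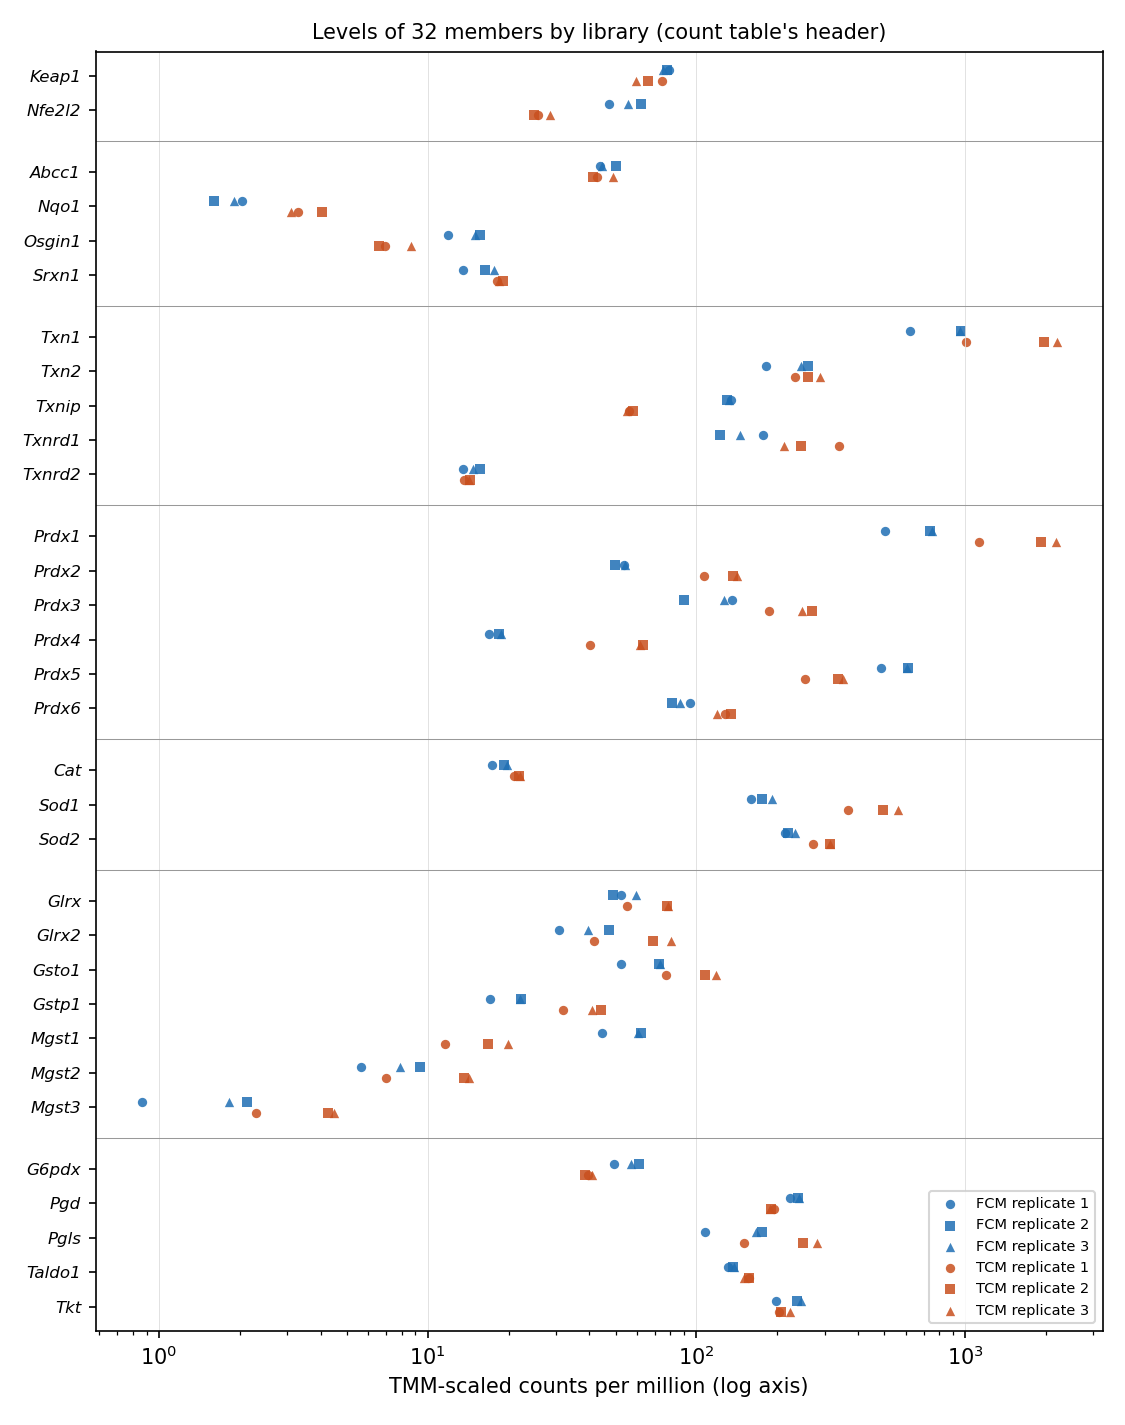
Level of each of the 32 genes in every library, as TMM-scaled CPM on a log axis, grouped by role, with FCM in blue, TCM in orange and the marker shape giving the replicate number. The blue and orange points of Prdx4, Sod1, Txnip and Mgst1 are well apart, those of Tkt, Abcc1 and Txnrd2 lie within each other's range, and all directions follow the count table's titles.

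Nfe2l2 (chromosome 2, 75675513 to 75704641, GRCm38), the gene of NRF2 itself, fell 2.08-fold. It had 47.1, 62.1 and 55.6 CPM in FCM replicates 1 to 3 and 25.8, 24.9 and 28.4 CPM in TCM replicates 1 to 3, a log2 change of -1.06 ± 0.13 (SE; edgeR adjusted p = 0.000209). Every TCM library was below every FCM library. Keap1, its sensor and repressor, went from 77.0 ± 1.96 to 66.5 ± 7.39 CPM (SD, n = 3) and did not pass (log2 change -0.21 ± 0.13, edgeR adjusted p = 0.171). Keap1 passed without TCM replicate 1 (-0.30, edgeR adjusted p = 0.0432) and with both replicate 1 libraries left out (-0.29, edgeR adjusted p = 0.00485). Within each library, the ratio of Nfe2l2 to Keap1 counts, which needs no scaling between libraries, was 0.598, 0.801 and 0.742 in FCM and 0.348, 0.379 and 0.477 in TCM.

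The genes classed here as inducible through NRF2 did not move together. Nqo1, a quinone reductase and a standard readout of NRF2, was scarce, with 45, 43 and 49 counts in FCM and 62, 62 and 55 counts in TCM. On the CPM scale it had 2.04, 1.61 and 1.90 in FCM and 3.30, 4.06 and 3.09 in TCM, a rise of 0.91 ± 0.19 on the log2 scale (SE; edgeR adjusted p = 0.00309), without overlap. Osgin1, an oxidative stress-induced growth inhibitor, went the other way, with 11.9, 15.6 and 15.0 CPM in FCM and 6.92, 6.61 and 8.65 CPM in TCM, also without overlap. Its log2 change was -0.94 ± 0.16 (SE; edgeR adjusted p = 0.00101). Srxn1, the sulfiredoxin that revives overoxidized peroxiredoxins, had 15.8 ± 2.11 and 18.5 ± 0.449 CPM (SD, n = 3) and did not pass (log2 change 0.23 ± 0.13, edgeR adjusted p = 0.152). Abcc1, an exporter of glutathione conjugates, had 46.2 ± 3.41 and 44.3 ± 4.18 CPM and did not pass either (log2 change -0.06 ± 0.12).

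In the thioredoxin system the genes of the cytosolic carrier and of its reductase rose, while that of the carrier's inhibitor fell. Txnip (chromosome 3, 96557957 to 96561883), which encodes a protein that binds and inhibits thioredoxin and restrains glucose uptake, had 134, 130 and 132 CPM in FCM and 55.9, 58.0 and 55 CPM in TCM. Its exons share 606 bases with Gm15441 on the opposite strand, which had under 1 CPM in each library. Replicates lay close together and the groups far apart, at a log2 change of -1.23 ± 0.12 (SE; edgeR adjusted p = 3.58e-05). Txn1 (chromosome 4, 57943373 to 57956411), cytosolic thioredoxin, had 625, 962 and 957 CPM in FCM and 1010, 1960 and 2190 CPM in TCM. The groups did not overlap, but TCM replicate 1 was barely above FCM replicate 2. Its rise was 1.02 ± 0.31 on the log2 scale (SE; edgeR adjusted p = 0.0187). The call for Txn1 was lost without FCM replicate 1, TCM replicate 2 or TCM replicate 3 (edgeR adjusted p = 0.0572, 0.0755 and 0.0585), and its change was 0.49 with the trend on transcript length removed.

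Txnrd1, the cytosolic selenoprotein that recharges thioredoxin, had 177, 122 and 145 CPM in FCM and 340, 244 and 212 CPM in TCM. No library overlapped between the groups, and replicate 1 was the highest of its group in both. The log2 change was 0.84 ± 0.21 (SE; edgeR adjusted p = 0.00836), and with library totals alone it did not pass (0.65, edgeR adjusted p = 0.076). The mitochondrial partners did not pass. Txn2 had 229 ± 41.6 and 260 ± 27.8 CPM (SD, n = 3; log2 change 0.18 ± 0.17) and Txnrd2 14.6 ± 1.06 and 14.1 ± 0.401 CPM (log2 change -0.06 ± 0.11). The cytosolic and mitochondrial genes of this system were also compared within libraries. Such a ratio needs no scaling between libraries but keeps any trend on transcript length. The ratio of Txn1 to Txn2 counts was 3.44, 3.69 and 3.91 in FCM and 4.34, 7.53 and 7.60 in TCM, and that of Txnrd1 to Txnrd2 was 13.1, 7.79 and 9.88 against 25.0, 16.9 and 15.0. Neither ratio overlapped between the groups, and each had p = 0.10 in a two-sided exact permutation test, the smallest that 3 libraries a side allow. With the length trend removed, log2 changes were 0.49 for Txn1 and 0.08 for Txn2, and 0.96 for Txnrd1 and -0.03 for Txnrd2. Per kilobase of transcript, the level of Txn1 was 807 ± 184 CPM in FCM and 1630 ± 596 CPM in TCM, against 112 ± 20.3 and 127 ± 13.6 CPM for Txn2.

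A stretch before the start of Txnip holds a pair of E-box-like blocks set 5 bases apart, the layout of the carbohydrate response elements through which glucose-sensing factors are known to act. This motif was searched after the value of Txnip had been seen, as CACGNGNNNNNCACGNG on both strands, and in no looser form. It occurred for 15 of 27025 genes (0.0555%) in the same windows and, among the members, for Txnip alone. These counts hold for this spelling only, and as Txnip was picked beforehand its match tests nothing. The match is in capitals.
Txnip, chr3:96557852-96557908, + strand: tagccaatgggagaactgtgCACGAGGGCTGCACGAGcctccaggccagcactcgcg
Whether this stretch took part in the fall of Txnip was not tested.

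**Figure D2:**
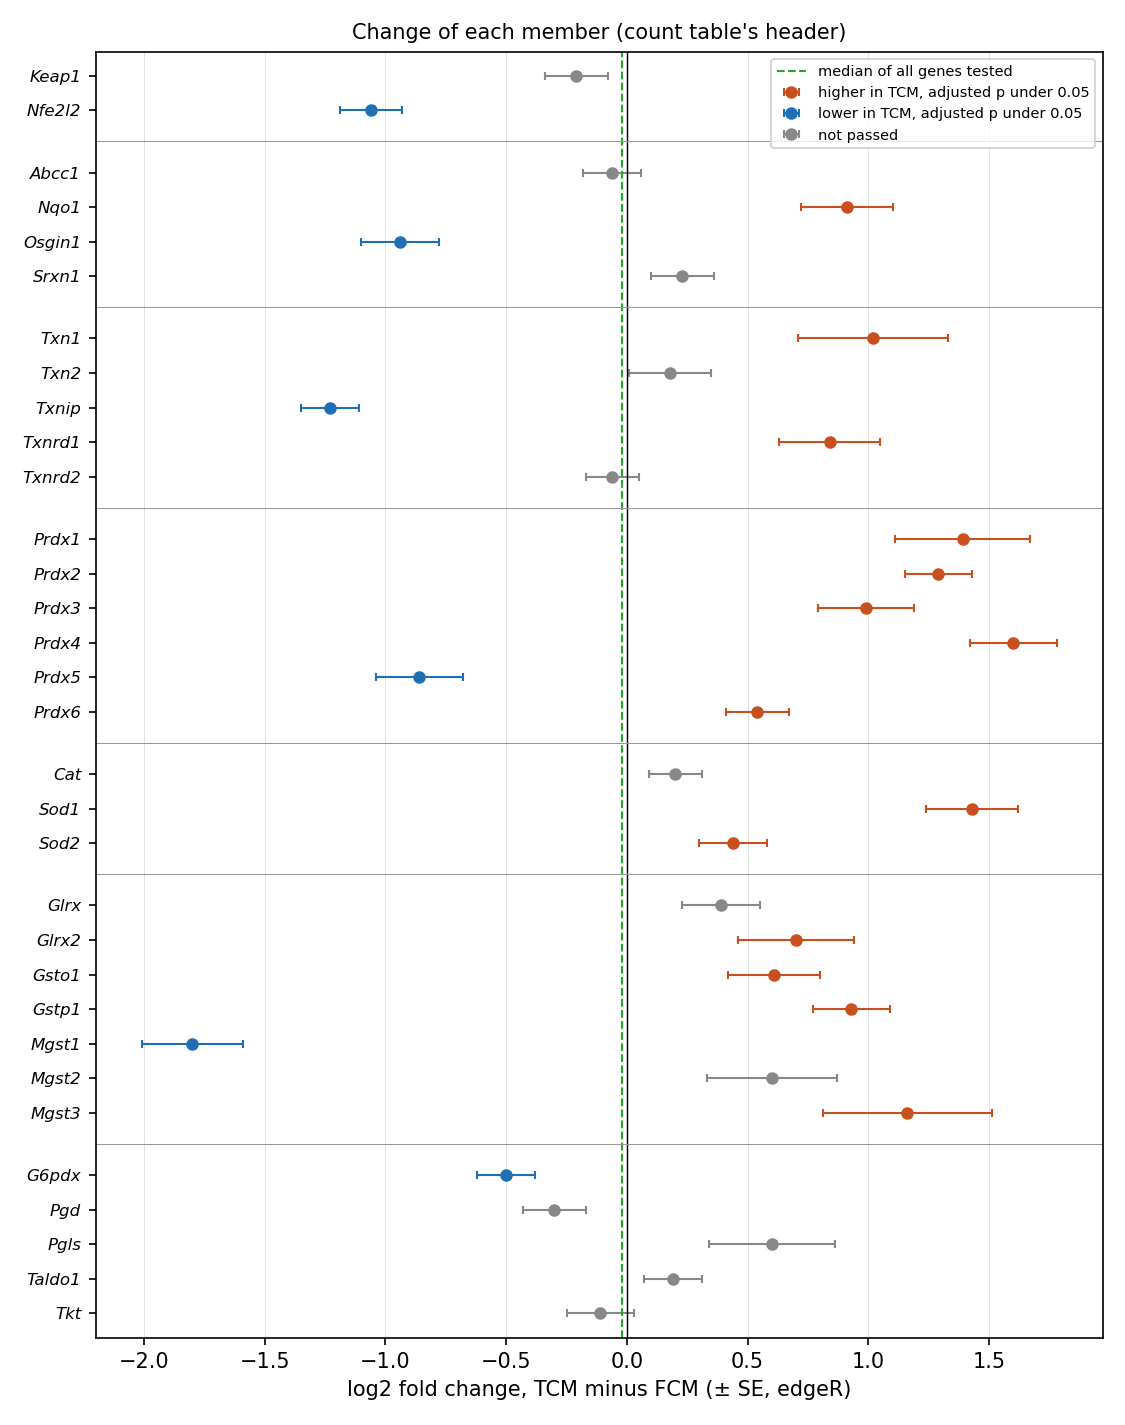
Log2 fold change of each gene, TCM minus FCM by the count table's titles, with its standard error from edgeR, coloured by call; the dashed line marks the median of all genes tested (-0.02). Mgst1 (-1.80), Txnip (-1.23) and Nfe2l2 (-1.06) lie farthest to the left, and Prdx4 (1.60), Sod1 (1.43) and Prdx1 (1.39) farthest to the right.

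Of the 6 peroxiredoxins, the thiol enzymes that clear most cellular peroxide, 5 rose and Prdx5 fell, and none of the 6 overlapped between groups. Prdx4, the form of the secretory pathway, had 16.9, 18.5 and 18.8 CPM in FCM and 40.1, 63.5 and 61.5 CPM in TCM, a log2 change of 1.60 ± 0.18 (SE; edgeR adjusted p = 9.85e-05). Prdx1 (chromosome 4, 116685544 to 116700822), an abundant cytosolic form, had 505, 737 and 751 CPM in FCM and 1130, 1920 and 2170 CPM in TCM, a log2 change of 1.39 ± 0.28 (SE; edgeR adjusted p = 0.00244). Replicate 1 was the lowest Prdx1 library of its group in both. Prdx2, also cytosolic and plentiful in red cells, had 53.9, 49.7 and 54.4 CPM in FCM and 107, 137 and 141 CPM in TCM. Its log2 change was 1.29 ± 0.14 (SE; edgeR adjusted p = 9.85e-05), while the erythroid markers were lower in the same TCM libraries. The exons of Prdx2 overlap those of Rnaseh2a and Junb on the opposite strand over 350 bases, and Junb rose too (log2 change 1.25 ± 0.27). Without a stated strand setting their shared reads cannot be told apart.

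Prdx3, the mitochondrial form, had 136, 89.8 and 127 CPM in FCM and 186, 268 and 247 CPM in TCM, a log2 change of 0.99 ± 0.20 (SE; edgeR adjusted p = 0.00285). Prdx6, which uses glutathione in place of thioredoxin, rose less far, from 87.4 ± 6.67 to 127 ± 8.31 CPM (SD, n = 3; log2 change 0.54 ± 0.13, edgeR adjusted p = 0.00592). With library totals alone Prdx6 did not pass (0.32, edgeR adjusted p = 0.169). Prdx5 (chromosome 19, 6906697 to 6910106), found in mitochondria, peroxisomes and cytosol, had 487, 610 and 607 CPM in FCM and 253, 337 and 350 CPM in TCM. It fell by 0.86 ± 0.18 on the log2 scale (SE; edgeR adjusted p = 0.0034). Trmt112, whose exons overlap Prdx5 by 409 bases on the opposite strand, did not pass (log2 change 0.38 ± 0.22). The order of levels per kilobase of the longest principal transcript changed. In FCM it ran from Prdx5 (450 ± 55.4 CPM per kilobase) and Prdx1 (290 ± 60.2) through Prdx3 (79.6 ± 16.5), Prdx6 (36.6 ± 2.79) and Prdx2 (32.7 ± 1.61) to Prdx4 (18.3 ± 1.03), where only Prdx6 and Prdx2 lay within their spreads of each other. In TCM Prdx1 (759 ± 236) came first, then Prdx5 (248 ± 41.5), Prdx3 (158 ± 29.0), Prdx2 (79.7 ± 11.5), Prdx4 (55.6 ± 13.1) and Prdx6 (53.3 ± 3.48), where Prdx4 did not differ from Prdx2 or Prdx6 beyond their spread. The place of Prdx1 depends on the length used, 2294 bases, against 1262 for Prdx5. In CPM not divided by length, Prdx1 and Prdx5 lay within their spreads in FCM (664 ± 138 and 568 ± 69.9), with Prdx1 the higher mean. Counts of Prdx1 relative to Prdx5 in the same library were 1.04, 1.21 and 1.24 in FCM and 4.47, 5.71 and 6.19 in TCM.

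**Figure D3:**
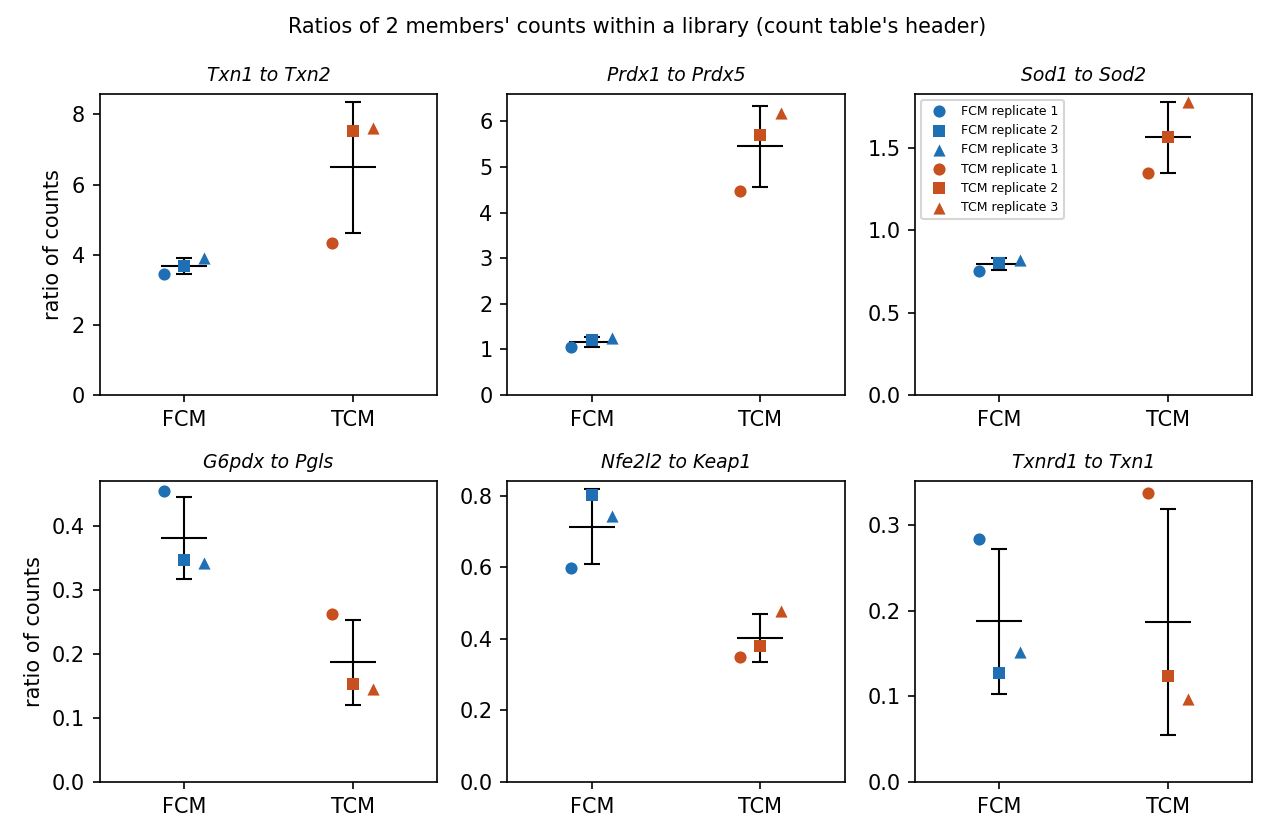
Ratio of the counts of 2 members within each library, free of scaling between libraries but not of a trend on transcript length. Points are libraries and black bars mean ± SD (n = 3), titled by the count table. Prdx1 to Prdx5 rose from 1.16 ± 0.108 to 5.46 ± 0.888 and Nfe2l2 to Keap1 went from 0.714 ± 0.105 to 0.401 ± 0.0674, whereas Txnrd1 to Txn1 (0.187 ± 0.0843 and 0.187 ± 0.132) was highest in replicate 1 of both groups.

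Among the enzymes for superoxide and for bulk hydrogen peroxide, both superoxide dismutases rose and catalase did not pass. Sod1 (chromosome 16, 90220754 to 90226329), the copper-zinc enzyme of the cytosol, had 160, 176 and 191 CPM in FCM and 366, 496 and 560 CPM in TCM. The log2 change was 1.43 ± 0.19 (SE; edgeR adjusted p = 0.000243), without overlap, and 0.71 with the length trend removed. Sod2, the manganese enzyme of mitochondria, went from 221 ± 9.90 to 301 ± 24.8 CPM (SD, n = 3; log2 change 0.44 ± 0.14, edgeR adjusted p = 0.0215). The call for Sod2 was lost with library totals alone (0.22, edgeR adjusted p = 0.212) and without any 1 library other than TCM replicate 1 (edgeR adjusted p from 0.0513 to 0.0834), and its change was 0.71 with the length trend removed. Cat, peroxisomal catalase, had 18.8 ± 1.26 and 21.6 ± 0.582 CPM and a log2 change of 0.20 ± 0.11 (edgeR adjusted p = 0.141).

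The glutathione transferases and glutaredoxins held the largest fall of all members. Mgst1 (chromosome 6, 138140316 to 138156755), a membrane-bound transferase with peroxidase activity, had 44.6, 62.1 and 60.5 CPM in FCM and 11.6, 16.7 and 19.9 CPM in TCM, 3.47-fold lower. The groups were far apart, at a log2 change of -1.80 ± 0.21 (SE; edgeR adjusted p = 0.000129). The sum of neutrophil markers fell in the same libraries, to 0.184 of its FCM mean, and that of macrophage markers to 0.195, or to 0.508 without Lyz2, with Emr1 and Cd68 not passing. The part of these cells in the fall of Mgst1 was not tested. Its relative Mgst3 rose. Mgst3 was scarce, with 19, 57 and 47 counts in FCM and 43, 65 and 80 in TCM, or 0.862, 2.13 and 1.82 against 2.29, 4.26 and 4.50 CPM. It rose by 1.16 ± 0.35 on the log2 scale (SE; edgeR adjusted p = 0.0175), did not pass without TCM replicate 2 or TCM replicate 3 (edgeR adjusted p = 0.069 and 0.0543) and stood at 0.68 with the length trend removed. Mgst2, with 7.63 ± 1.85 and 11.6 ± 4.01 CPM, did not pass (log2 change 0.60 ± 0.27, edgeR adjusted p = 0.087). With the replicate number as a block it did (0.59, edgeR adjusted p = 1.42e-05), as it did without TCM replicate 1 (0.87, edgeR adjusted p = 0.00378), while with the length trend removed its sign turned (-0.15).

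Gstp1, the cytosolic pi-class transferase, had 17.1, 22.3 and 22.1 CPM in FCM and 32, 44.3 and 40.9 CPM in TCM, without overlap. The log2 change was 0.93 ± 0.16 (SE; edgeR adjusted p = 0.00119), or 0.32 with the length trend removed. Its close copy Gstp2 held 0 to 4 counts a library, and how reads shared by such copies were counted is not given in the sources used here. Gsto1, an omega-class transferase, had 52.3, 72.5 and 73.2 CPM in FCM and 77.3, 108 and 118 CPM in TCM, where TCM replicate 1 lay just above FCM replicate 3. Its rise of 0.61 ± 0.19 (SE; edgeR adjusted p = 0.0231) did not pass with the length trend removed (0.18) or with library totals alone (0.38). It was also lost without FCM replicate 1, TCM replicate 2 or TCM replicate 3.

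Glrx2, the mitochondrial glutaredoxin, had 30.7, 47.1 and 39.5 CPM in FCM and 41.6, 68.7 and 80.5 CPM in TCM. It was the only called member whose groups overlapped (log2 change 0.70 ± 0.24, edgeR adjusted p = 0.0336). The call was lost without FCM replicate 1, FCM replicate 3, TCM replicate 2 or TCM replicate 3 and with library totals alone (0.46). Glrx, the cytosolic glutaredoxin, had 53.7 ± 5.64 and 70.3 ± 13.2 CPM and did not pass (log2 change 0.39 ± 0.16, edgeR adjusted p = 0.0648). It passed with the replicate block (0.38, edgeR adjusted p = 0.000554), in DESeq2 (0.43, adjusted p = 0.043) and without TCM replicate 1 (0.54, edgeR adjusted p = 0.00414), and was near 0 (0.03) with the length trend removed.

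In the pentose phosphate pathway 1 of 5 enzymes was called. G6pdx (chromosome X, 74409483 to 74429194), the entry enzyme that sets the rate of the oxidative branch, had 49.3, 61.0 and 57.3 CPM in FCM and 39.4, 38.4 and 40.9 CPM in TCM. All TCM libraries were lower, at a log2 change of -0.50 ± 0.12 (SE; edgeR adjusted p = 0.0067). Its exons overlap those of Ikbkg by 418 bases on the opposite strand, and Ikbkg fell as well (log2 change -0.53 ± 0.12). Pgd, which makes NADPH in the same branch, had 234 ± 10.5 and 190 ± 3.66 CPM, did not overlap and did not pass (log2 change -0.30 ± 0.13, edgeR adjusted p = 0.0708). It passed as lower with the replicate block (-0.30, edgeR adjusted p = 0.0109), in DESeq2 (-0.26, adjusted p = 0.0248), with library totals alone (-0.50, edgeR adjusted p = 0.0252) and with the length trend removed (-0.37, edgeR adjusted p = 0.0137).

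Pgls, the lactonase between these steps, had 150 ± 36.5 and 227 ± 69.0 CPM and did not pass (log2 change 0.60 ± 0.26, edgeR adjusted p = 0.0758). It passed as higher with the replicate block (0.58, edgeR adjusted p = 3.70e-07), in DESeq2 (0.63, adjusted p = 0.0425) and without TCM replicate 1 (0.83, edgeR adjusted p = 0.00589). With the length trend removed its change was -0.00 (edgeR adjusted p = 0.99). The exons of Pgls overlap those of Fam129c by 776 bases on the same strand, and Fam129c fell (log2 change -1.28 ± 0.12), which touches the Pgls counts and the ratio that follows. In every library the count of G6pdx relative to Pgls was lower in TCM (0.263, 0.153 and 0.145) than in any FCM library (0.455, 0.348 and 0.342). The non-oxidative enzymes among the members changed little on the fitted scale. Taldo1, transaldolase, had 136 ± 3.64 and 155 ± 4.38 CPM (log2 change 0.19 ± 0.12) and Tkt, transketolase, 227 ± 25.9 and 211 ± 10.9 CPM (log2 change -0.11 ± 0.14), and neither passed. With both replicate 1 libraries left out Tkt passed as lower (-0.18, edgeR adjusted p = 0.0464). Rpe and Rpia belong to this branch but not to the members, and are named after their values were seen. Rpe rose from 52.5 ± 10.5 to 108 ± 7.89 CPM (log2 change 1.04 ± 0.16, edgeR adjusted p = 0.000617), and Rpia did not pass (-0.29 ± 0.13).

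The other genes of these pathways were read from lists put together from general knowledge, with earlier results of these data known. Their counts are to be set against the 28.8% of all genes called higher and 30.0% called lower. Of 11 partners and regulators of NRF2, all tested, 1 rose (9.09%), 3 fell (27.3%, near the share of all genes) and 7 did not pass, with a median log2 change of -0.20. Nfe2, a relative of NRF2 known from megakaryocytes, red cell precursors and myeloid cells, fell from 24.1 ± 3.12 to 2.84 ± 0.606 CPM (SD, n = 3, log2 change -3.10 ± 0.18). The erythroid and neutrophil marker sums fell in the same libraries. The sum of 4 platelet markers ran from 8.53 to 9.89 CPM in FCM and from 4.84 to 6.18 CPM in TCM, with Pf4 not passing. The part of these cells in the fall of Nfe2 was not tested. Nfe2l1, the relative that induces proteasome genes, fell from 420 ± 38.2 to 196 ± 35.4 CPM (log2 change -1.10 ± 0.17). The small MAF gene Maff, whose protein pairs with NRF2, rose from 21.6 ± 2.50 to 38.8 ± 4.94 CPM (log2 change 0.84 ± 0.14). Bach1, a repressor at antioxidant response elements, was the remaining gene that fell and is named after its value was seen (-0.83 ± 0.15). The number that rose was 2 with the replicate block, in DESeq2, with the length trend removed, without TCM replicate 1 and with both replicate 1 libraries left out, and in the last of these 5 fell.

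Of 22 further NRF2-linked and glutathione genes, 21 were tested, and 11 rose (52.4%), 4 fell (19.0%) and 6 did not pass, with a median of 0.60. Ephx1, an epoxide hydrolase, rose from 10.4 ± 1.12 to 42.9 ± 3.74 CPM (SD, n = 3; log2 change 2.04 ± 0.13). Gss, glutathione synthetase, rose from 6.29 ± 0.496 to 18.5 ± 0.986 CPM (1.55 ± 0.12), and the transferase gene Gstm1 from 1.97 ± 0.564 to 11.6 ± 1.60 CPM (2.54 ± 0.21). The others that rose are named after their values were seen. They were Hmox1 (1.37 ± 0.15), Slc7a11 (0.95 ± 0.23), Fth1 (0.92 ± 0.21), Cbr1 (0.77 ± 0.14), Blvrb (0.60 ± 0.18) and Gclm (0.56 ± 0.16). Cbr3 (1.82 ± 0.33) and Me1 (1.24 ± 0.35) rose as well but were scarce, at 6 to 21 counts a library. With library totals alone, or without TCM replicate 2, 8 genes of this list rose. The 4 that fell, named after their values were seen, were the exporter genes Abcc4 (-0.64 ± 0.11) and Abcc5 (-0.40 ± 0.11), Gclc (-0.51 ± 0.11), which encodes the catalytic subunit of the enzyme that begins glutathione synthesis, and Idh1 (-0.60 ± 0.22), a cytosolic source of NADPH. Idh1 did not pass in DESeq2 or without any 1 library other than TCM replicate 3 (adjusted p from 0.0546 to 0.143 in DESeq2 and edgeR). Abcc5 did not pass without TCM replicate 2 (-0.36, edgeR adjusted p = 0.0508) or with the length trend removed (-0.15, edgeR adjusted p = 0.303). Without TCM replicate 2, 2 genes of this list fell.

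Of 22 other peroxide, superoxide and thiol enzymes, 20 were tested, and 15 rose (75.0%), 3 fell (15.0%) and 2 did not pass, with a median of 0.67. With library totals alone 9 of these rose. Gpx3, the secreted glutathione peroxidase, rose from 0.822 ± 0.332 to 12.5 ± 4.08 CPM (SD, n = 3, log2 change 3.90 ± 0.34). It was scarce in FCM, with 13, 18 and 31 counts, against 146, 223 and 268 counts in TCM. Gpx4, which reduces lipid peroxides, rose from 40.0 ± 4.49 to 132 ± 20.8 CPM (1.72 ± 0.16), and Park7, whose protein is known as an oxidation sensor, from 55.3 ± 1.55 to 109 ± 1.69 CPM (0.98 ± 0.11). The 3 that fell, named after their values were seen, were Sesn1 (-1.37 ± 0.17), Msra (-0.84 ± 0.14) and Txnrd3 (-0.66 ± 0.15), the reductase gene that is neither Txnrd1 nor Txnrd2.

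Of 15 other pentose phosphate and NADPH-making enzymes 5 rose (33.3%, near the share of all genes), 2 fell (13.3%) and 8 did not pass, with a median of 0.11. The mitochondrial NAD kinase gene Nadk2 (Nadkd1 in the table) rose from 12 ± 2.17 to 38.6 ± 2.53 CPM (SD, n = 3; log2 change 1.69 ± 0.15). Prps2, which turns ribose phosphate into the precursor of nucleotides, rose from 34 ± 4.17 to 69.1 ± 5.38 CPM (1.02 ± 0.13). Mthfd2, a mitochondrial folate enzyme, fell from 135 ± 2.35 to 59.2 ± 2.34 CPM (-1.19 ± 0.12), and Nadk, named after its value was seen, was the other gene that fell (-0.51 ± 0.14). The number that fell was 1 without TCM replicate 2 or TCM replicate 3 and 4 with the replicate block, with library totals alone, with the length trend removed and with both replicate 1 libraries left out.

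Of 13 genes listed for making superoxide or peroxide 9 were tested, and 1 rose (11.1%), 6 fell (66.7%) and 2 did not pass, with a median of -0.75. Xdh, xanthine dehydrogenase, fell from 32.6 ± 2.49 to 7.03 ± 1.27 CPM (SD, n = 3; log2 change -2.21 ± 0.15). The neutrophil and macrophage marker sums fell in the same libraries, and their part was not tested. The gene that rose was Nos2, better known for making nitric oxide, from 62.7 ± 8.18 to 277 ± 39.2 CPM (2.14 ± 0.17). In this list 3 rose with the replicate block, without TCM replicate 1 and with both replicate 1 libraries left out, and 2 in DESeq2 and with the length trend removed.

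**Figure D4:**
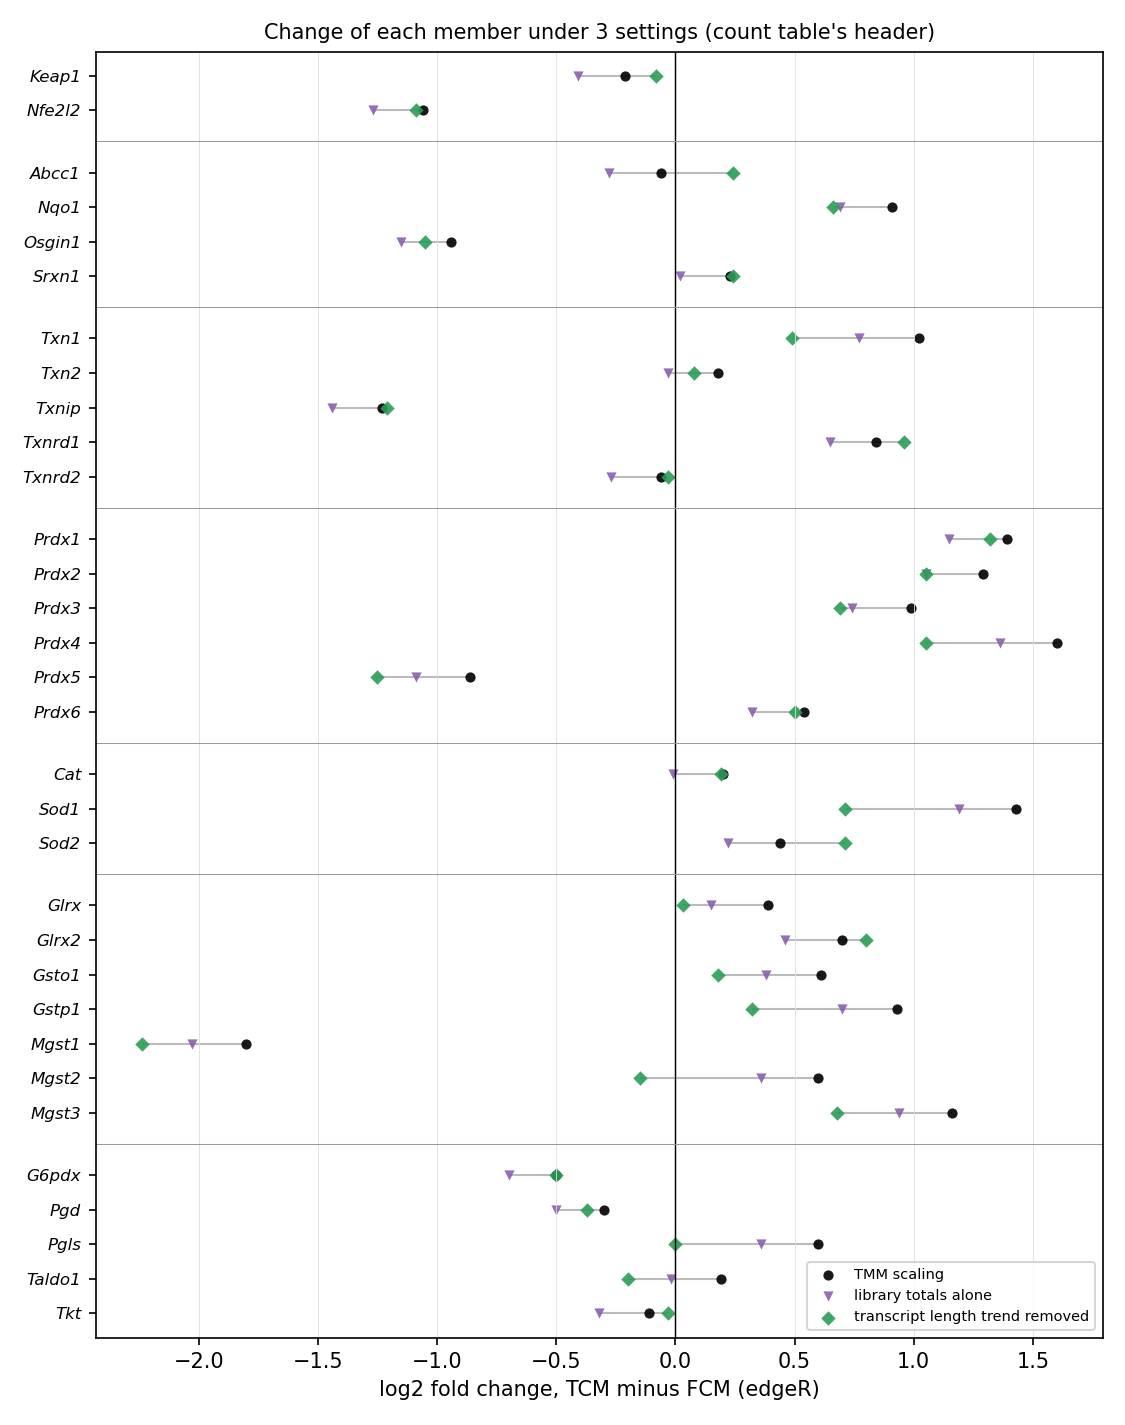
Log2 fold change of each gene, TCM minus FCM by the count table's titles, with TMM scaling (black circles), with library totals alone (purple triangles) and with the transcript length trend removed (green diamonds), where a grey line joins the lowest and highest value. Sod1 went from 1.43 to 0.71 and Gstp1 from 0.93 to 0.32 with the trend removed, while Nfe2l2 (-1.06 and -1.09), Txnip (-1.23 and -1.21) and Prdx1 (1.39 and 1.32) hardly moved. Values with the trend removed depend on the transcript length used, which was 2294 bases for Prdx1.

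Transcript length and the replicate 1 libraries moved with these values and are given as measured. Over all genes, split by transcript length into 5 bins of like size, the median log2 change went from 0.47 in the shortest bin to -0.35 in the longest. The shortest bin held 15 of the 32 members, of which 9 rose and 2 fell. The share of all genes in that bin that rose or fell was not counted, so these counts say nothing particular about the members. The median transcript was 1515.5 bases for the 14 that rose and 2240 bases for the 6 that fell. With the length trend removed 13 members rose and 7 fell, at a median of 0.18 in place of 0.42. Replicate 1 was below the mean of replicates 2 and 3 in both groups for 23 members and above it in both groups for 3 (Keap1, Txnrd1 and Prdx6). The like count over all genes was not made. The depth of replicate 1 was the lowest in each group in total counts, and the part of depth or RNA quality in this was not tested.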

How the data were processed

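The authors deposited raw exon read counts, 1 row a gene symbol and 1 column a library. The deposited normalized table holds a signal, gene counts divided by the authors by 1 size factor per library. STAR 2.7.2d, DESeq2 1.28.1 and mm10 are named in the submitters' processing notes without roles, and neither strand setting, counter nor annotation is given in the sources used here. Undoing that factor recovered whole reads in every normalized column, for 100% of its values above 0 (tolerance 0.1 reads). Columns were assigned by title, and 92 spike-in rows with 0 counts were left out.

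Low counts were filtered with filterByExpr, and edgeR 4.0.16 in R 4.3.3 was used for TMM scaling and testing (quasi-likelihood, group as the sole term, Benjamini-Hochberg adjustment over 12423 genes, threshold 0.05). The SE is the log2 change divided by the square root of F; the fit was tested on simulated data. CPM are TMM-scaled, as mean ± SD. No library duplicated another: within groups, chi-square per gene was 5.08 to 110. Gene positions, exon overlaps and transcript lengths (longest principal transcript) are from GENCODE M21 on GRCm38, promoters from RefSeq. Deviations of same-numbered libraries from their group means correlated at 0.60, 0.146 and 0.36, each over 0.1, so the replicate numbers were taken to pair them, from the data and not the labels. FCM replicate 2 with TCM replicate 3 (0.424) and FCM replicate 3 with TCM replicate 2 (0.266) exceeded 0.146, so the check separates replicate 1 from the others and does not tell replicates 2 and 3 apart. Marker sums without each list's most abundant gene were added after seeing the data. Other settings were DESeq2 1.42.0, library totals, no filter, a replicate block, each library left out, both replicate 1 libraries left out, and the length trend removed by per-library loess offsets (12234 genes). Per-library values are given for members called at 1.5-fold or more, and for the member with the smallest p in a role group without one; in each further list the 3 genes with the smallest p are named, except 1 gene that is not reported here. Members, lists and rules were chosen with earlier results of these data known.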

Additional observations from a re-analysis of the deposited data

How the results depend on the processing

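Over 12 other settings, 13 of the 20 called members kept their direction and call in each; the other 7 (Txnrd1, Txn1, Prdx6, Sod2, Mgst3, Gsto1 and Glrx2) kept their direction and lost the call in at least 1. Of the 12 that did not pass, 6 passed in some setting. The members that rose numbered 9 with library totals alone and 9 to 17 with 1 library left out, and all genes called higher numbered 2364 with library totals. Signs turned for Txn2 (-0.03), Cat (-0.01) and Taldo1 (-0.02) with library totals and for Mgst2 (-0.15), Pgls (-0.00), Taldo1 (-0.20) and Abcc1 (0.24) with the length trend removed; Abcc1 ran from -0.13 to 0.01 with 1 library left out. The cause was not tested in any of these. The paired analysis with the replicate block called 17 members higher and 7 lower and changed no call other than those of Mgst2, Glrx, Pgd and Pgls. On the normalized table's reads with its own titles, a setting chosen after seeing the data, edgeR called 6 members higher and 14 lower, and 3726 and 3584 of all genes. Among the members, depth limits Nqo1 and Mgst3, at 19 to 80 counts a library.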
